A study of Mus musculus with 10 samples.

Results

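Transcripts of heat shock transcription factor genes and of the heat shock factor binding protein gene Hsbp1 were described in mouse embryonic fibroblasts (MEF), connective-tissue cells grown in culture, after a mild heat treatment. The genes considered were Hsf1, Hsf2, Hsf4 and Hsbp1, and every probe set named for 1 of them alone in the array's annotation was taken, whatever its level. This gave 5 probe sets of 3 genes, out of 45101 probe sets and 18193 genes with a probe set of their own. Hsf2 and Hsbp1 had 2 probe sets each and Hsf4 had 1, and no probe set was named for a member together with another gene. Hsf1 was not analysed here.

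The 10 Affymetrix arrays fall into 4 groups. KO-labelled preshocked cells (3 arrays, numbered 5, 11 and 13 in the labels) carry the label (-/-), were grown for 20 hours in 96-well plates, put in a water bath of 43 °C for 30 minutes, and harvested after a further 3 hours. KO-labelled unheated cells (3 arrays, numbered 6, 12 and 14) are the same line harvested at 23 hours without heat. Rescue-labelled preshocked cells (2 arrays, 31 and 43) and rescue-labelled unheated cells (2 arrays, 32 and 44) are a line labelled (+/+) that was treated in the same ways. The series text calls the lines hsp70 knockout and hsp70 rescue, each line stands alone for its genotype, and each sample is a pool of 144 wells. Whether the samples within a group came from different cultures is not stated in the labels, and the p-values below then measure only the spread between these samples, which may be technical.

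Heat shock factors are DNA-binding proteins that form trimers and bind heat shock elements, repeats of the short unit GAA in alternating orientation, in front of chaperone genes. HSF1 is the main factor of the acute heat response and is held inactive by chaperones and activated mostly at the level of the protein. HSF2 can join HSF1 in mixed trimers and is known for roles in development and in the response to proteasome inhibition, HSF4 is known for its role in the lens, and HSBP1 is a small coiled-coil protein that binds trimeric HSF1 and dampens its activity.

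The deposited median intensity was 100.4 in array 5 and 107.0 in array 6, against 50.7 to 73.7 in the other 8 arrays. Because array medians differed, log2 values were quantile normalized, and all levels on a log2 scale below are normalized. The pair 5 and 6 still stood apart on the first principal component of the normalized values (21.4% of the variance). Its scores there were -158.0 and -181.4, against -21.4 to 83.6 in the other 8 arrays. Normalization thus did not remove the difference of this pair. As a check of the labels, a probe set of Hspa1b, which encodes an inducible Hsp70, was at 19912 to 31556 in KO-labelled preshocked arrays, against 212 to 477 in KO-labelled unheated arrays. It was at 24677 to 37506 in rescue-labelled preshocked arrays, against 465 to 675 in rescue-labelled unheated arrays. A signal thus rose in the line labelled knockout, and since the labels do not say which sequence is deleted, each direction between lines below is one between the labels. Of 10 fibroblast markers, 5 lay above percentile 90 of the arrays' probe sets by mean level (Vim at percentile 99.99), and Lum, at percentile 41.3, and Thy1, at percentile 57.3, were dim. The 28 measured markers of other cell types lay between percentiles 6.64 and 72.9, and their part in the results was not tested. In such pooled lysates, fewer cells of a type and less RNA per cell cannot be told apart.

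The sequences just before the transcription start are shown for the members matched in the RefSeq table (Hsf2 and Hsbp1) and, for contrast, for 2 target genes that rose after preshock (Hspa1b and Hspb1, an inducible small heat shock protein). Each run is the 150 bases before the start in GRCm38.p6, written 5′ to 3′ on the gene's strand. Capitals mark 2 adjacent heat shock units, TTCNNGAA or GAANNTTC, each of which reads the same on both strands. They are chr10:57486235-57486384 (plus strand) for Hsf2, chr8:119344388-119344537 (plus) for Hsbp1, chr17:34959239-34959388 (minus) for Hspa1b and chr5:135887769-135887918 (plus) for Hspb1. The Hsf2 start used is the 1 that the table gives, and it lies within the longer span annotated for the gene, so the run is not the sequence before that span.
Hsf2: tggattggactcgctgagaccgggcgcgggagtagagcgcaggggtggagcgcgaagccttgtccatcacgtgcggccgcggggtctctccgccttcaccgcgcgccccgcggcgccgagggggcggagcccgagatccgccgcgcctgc
Hsbp1: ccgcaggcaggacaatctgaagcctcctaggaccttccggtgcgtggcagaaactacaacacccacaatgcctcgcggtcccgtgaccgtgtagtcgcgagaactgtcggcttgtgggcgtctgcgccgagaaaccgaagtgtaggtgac
Hspa1b: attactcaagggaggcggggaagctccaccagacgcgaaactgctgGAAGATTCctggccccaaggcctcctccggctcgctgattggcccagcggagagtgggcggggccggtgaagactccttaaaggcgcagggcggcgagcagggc
Hspb1: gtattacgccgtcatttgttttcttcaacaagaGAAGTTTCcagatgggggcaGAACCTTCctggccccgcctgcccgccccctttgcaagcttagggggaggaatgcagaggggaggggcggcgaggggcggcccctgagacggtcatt

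Over the full windows, 250 bases before to 50 after a start, the Hsf2 and Hsbp1 windows held 0 matches to the 2-unit letters and 0 to 3 units in a row (TTCNNGAANNTTC or, on the other strand, GAANNTTCNNGAA). Of all 32851 windows, 15.1% held 2 units and 0.603% held 3, and each 3-unit match also contains 2-unit matches. Of 24 listed HSF target genes with a window, 13 held 2 units and 4 held 3 in at least 1 of their windows. The windows of Dnajb1, a target that rose by 2.76 log2 after preshock (mean of both lines), held 0 matches to 2 or 3 units. Hspd1 and Hspe1, both counted as holding 3 units, have overlapping windows, so the same bases are counted for both. The targets are counted by gene, over any of its windows, and the shares above by window, so they are unlike measures. No match says only that these letters are not in this window.

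None of the 5 probe sets passed the test in any comparison. One limma fit with a mean for each group was made over 45037 probe sets, the Benjamini-Hochberg adjustment ran over all of them, and a probe set was called at an adjusted p under 0.05. After preshock, 0 of 5 were called in KO-labelled arrays (background 0.395% of probe sets), 0 in rescue-labelled arrays (0.131%) and 0 for the mean effect of both lines (0.944%). Between the lines, 0 of 5 were called in unheated arrays (0.0799%) and 0 in preshocked arrays (0.0488%), and the difference of preshock effects had 0 of 5 (0% of all probe sets, with 2.14% at an unadjusted p under 0.05). At an unadjusted p under 0.05 there were 0 members after preshock in KO-labelled arrays (6.81% of all probe sets), in rescue-labelled arrays (5.51%) and for the mean effect (9.13%), 0 for the difference, and 1 of 5, the Hsbp1 probe set 1451162_at, in each comparison between lines (8.95% of all probe sets in unheated and 9.01% in preshocked arrays). With adjoining array numbers as pairs, which raised the background after preshock to 5.79%, 3.04% and 8.97% for KO-labelled, rescue-labelled and mean effects, 0 members were called as well. The block added a second member at an unadjusted p under 0.05, the Hsbp1 probe set 1423906_at between unheated lines (0.60 log2, 95% interval 0.06 to 1.15). The share of all probe sets at that unadjusted threshold with the block was not counted. At an adjusted p under 0.05 the block called 0.115% of all probe sets between unheated and 0.175% between preshocked lines. At backgrounds this low, 0 of 5 is what the table as a whole gives, so sizes and intervals are given for each gene. Preshocked and unheated arrays overlapped in normalized level for all 5 probe sets in both lines, where 11.3% of all probe sets did not overlap in KO-labelled and 34.3% in rescue-labelled arrays.

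**Figure D1:**
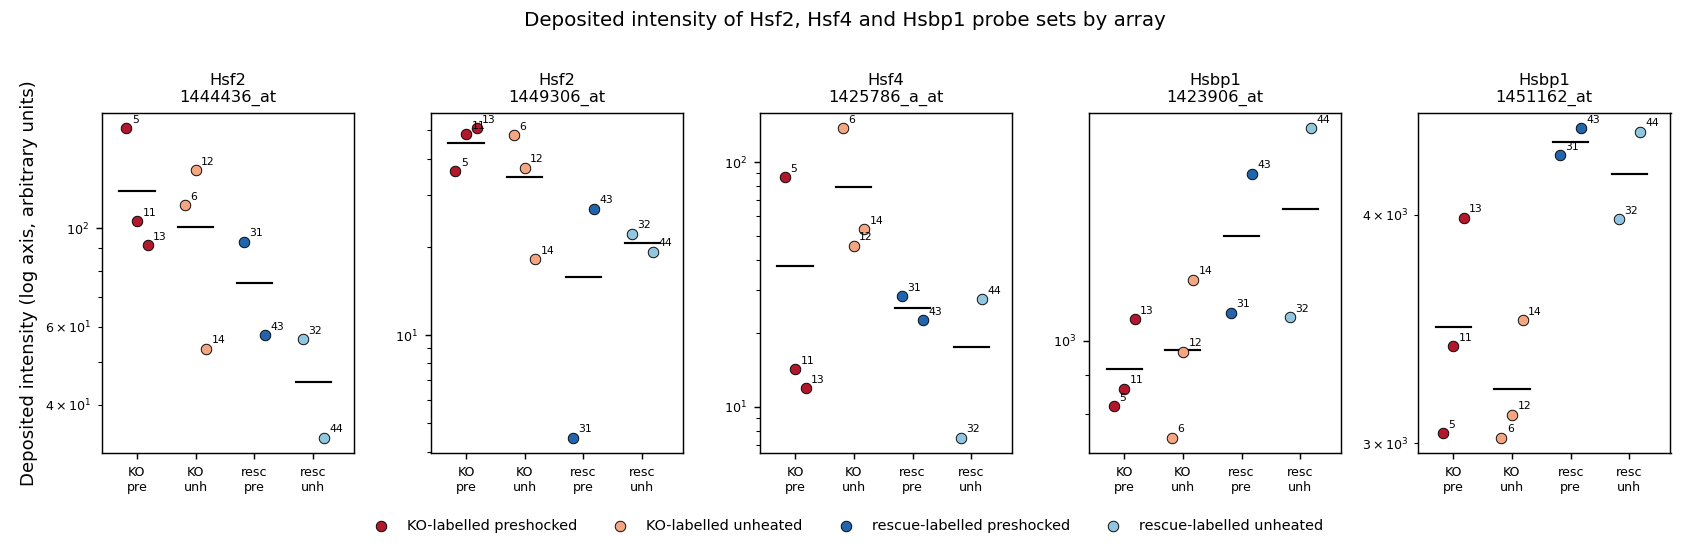
Deposited intensity (log axis, arbitrary units, different range in each panel) of the 5 probe sets in each of the 10 arrays. Points are arrays with their label numbers, black lines are group means, and only in the Hsbp1 probe set 1451162_at do preshocked and unheated rescue-labelled arrays both lie above unheated KO-labelled arrays, at 3978 and more against 3504 and less.

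Hsf2 (gene 15500, chromosome 10, 57483766 to 57513143 of GRCm38.p6) was near the middle of the arrays' signal range. Its probe set 1444436_at lay at percentile 56.2 by mean level, and 1449306_at at 36.9, outside the brightest 60% of probe sets. On 1444436_at the deposited intensity was 167.9, 103.7 and 91.5 in KO-labelled preshocked arrays 5, 11 and 13, against 112.7, 135.0 and 53.5 in KO-labelled unheated arrays 6, 12 and 14. It was 93.2 and 57.3 in rescue-labelled preshocked arrays 31 and 43, against 56.2 and 33.7 in rescue-labelled unheated arrays 32 and 44. In the KO-labelled line the groups overlapped, array 12, unheated, being above 2 of the 3 preshocked arrays. In the rescue-labelled line the lower preshocked array, 43, was just above the higher unheated array, 32, and after normalization just below it (6.12 against 6.13 log2).

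Within pairs of adjoining numbers this Hsf2 signal was higher after preshock in 4 of 5, by 0.85, 0.75, 0.69 and 0.74 log2, and stood at -0.27 in the pair 11 and 12. At least 4 pairs with one sign occurred in 51.9% of all probe sets. The fitted differences, preshocked minus unheated, were 0.45 ± 0.43 log2 in KO-labelled arrays (SE, adjusted p = 0.9999) and 0.72 ± 0.53 in rescue-labelled arrays (adjusted p = 0.9999). Single arrays moved these: the first was 0.76 without array 12 and 0.26 without array 14, and the second 0.37 without array 31, 0.34 without array 44, 1.05 without array 43 and 1.08 without array 32. For the mean of both lines the difference was 0.58 ± 0.34, with a 95% interval from -0.17 to 1.33 (adjusted p = 0.720 by limma). With the pair block the interval ran from -0.02 to 1.18 (adjusted p = 0.263), so that a change of more than 2.51-fold up lay outside the unblocked interval and 0 lay inside both intervals.

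The other Hsf2 probe set, 1449306_at, did not move with the first, with a correlation of -0.04 between them over the 10 arrays. Its deposited intensity was 36.3, 48.4 and 50.8 in KO-labelled preshocked arrays, against 48.1, 37.3 and 18.2 in KO-labelled unheated arrays. In rescue-labelled arrays it was 4.47 and 27.0 after preshock, against 22.1 and 19.2 unheated. Array 31 alone set the low preshocked mean in the rescue-labelled line, where the fitted difference was -0.82 ± 0.93 log2 with it and 0.41 without it. The mean preshock effect was -0.14 ± 0.60 log2 (95% interval -1.45 to 1.18, adjusted p = 0.990), and 0.48 without array 31. In KO-labelled arrays the difference was 0.55 ± 0.76 (adjusted p = 0.9999), above 0 as on the first probe set. The opposite signs in the rescue-labelled line and for the mean effect were not seen without array 31, and neither Hsf2 probe set passed the test.

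Between the lines, Hsf2 on 1444436_at averaged 6.78 ± 0.14 in KO-labelled and 6.47 ± 0.50 in rescue-labelled preshocked arrays (log2 level, SD, n = 3 and 2). In unheated arrays it averaged 6.33 ± 0.54 in KO-labelled and 5.75 ± 0.53 in rescue-labelled arrays (SD, n = 3 and 2). From highest to lowest the order of levels was KO-labelled preshocked, rescue-labelled preshocked, KO-labelled unheated and rescue-labelled unheated. The first 2 steps in that order were smaller than the larger SD of the groups compared, and the last, of 0.58, was slightly above it. The rescue minus KO differences were -0.31 ± 0.48 in preshocked and -0.58 ± 0.48 in unheated arrays (SE, adjusted p = 0.891 and 0.757). The unheated one was -0.20 without array 44, -0.27 without array 12 and -0.94 without array 32, and the preshocked one was -0.65 without array 31 and 0.04 without array 43. On 1449306_at they were -1.42 ± 0.85 and -0.05 ± 0.85 (adjusted p = 0.657 and 0.992), the first resting on array 31, without which it was -0.19. With the deposited scaling kept, where the median of all probe sets was -0.18 in preshocked and -0.19 in unheated arrays, the 1444436_at differences were -0.68 and -1.10.

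Hsf4 (gene 26386, chromosome 8, 105269414 to 105275845 of GRCm38.p6) was the most variable of the 5 across arrays, with an SD of 0.99 log2 over the 10. Its probe set 1425786_a_at lay at percentile 39.8 by mean level and between percentiles 19.6 and 55.3 in single arrays, outside the brightest 60%. The deposited intensity was 87.0, 14.3 and 11.9 in KO-labelled preshocked arrays 5, 11 and 13, against 137.7, 45.6 and 53.2 in KO-labelled unheated arrays 6, 12 and 14. In rescue-labelled arrays it was 28.3 and 22.6 after preshock (31 and 43), against 7.49 and 27.6 unheated (32 and 44). The pair 5 and 6, with the highest array medians, also had the highest Hsf4 values, and the correlation of the log2 Hsf4 value with the log2 array median over 10 arrays was 0.77 as deposited and 0.59 after quantile normalization. The part of the array median in these values was not tested.

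After preshock the Hsf4 signal was lower in each of the 3 KO-labelled pairs, by differences of -0.68, -1.37 and -2.13 log2, while the rescue-labelled pairs gave 1.77 and -0.24. The share of all probe sets with one sign in these 3 pairs was not counted. The KO-labelled groups still overlapped, since array 5 was above arrays 12 and 14 in deposited intensity, and above array 12 after normalization (5.77 against 5.24). The fitted effect in KO-labelled arrays was -1.39 ± 0.75 log2 (95% interval -3.03 to 0.25, adjusted p = 0.840), and with the pair block the interval was -2.84 to 0.06 (adjusted p = 0.315). In rescue-labelled arrays it was 0.76 ± 0.92 (adjusted p = 0.9999), and -0.08 without array 32. The rescue minus KO difference of these effects, tested as an interaction, was 2.16 ± 1.19 log2 (95% interval -0.43 to 4.75, adjusted p = 0.99999), and 1.30 without array 32. Sizes at this signal level are uncertain, because normalized levels within KO-labelled preshocked arrays ran from 3.82 to 5.77 log2 and within rescue-labelled unheated arrays from 3.39 to 5.08.

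In unheated arrays Hsf4 averaged 5.88 ± 0.60 log2 in KO-labelled and 4.24 ± 1.19 in rescue-labelled arrays (level, SD, n = 3 and 2), and all 3 KO-labelled arrays were above both rescue-labelled ones. Such separation in either direction was found for 26.2% of probe sets. The rescue minus KO difference was -1.64 ± 0.84 (SE, 95% interval -3.47 to 0.19, adjusted p = 0.6002), and -0.79 without array 32. In preshocked arrays the levels were 4.49 ± 1.11 in KO-labelled and 5.002 ± 0.22 in rescue-labelled arrays, the groups overlapped, and the difference was 0.51 ± 0.84 (adjusted p = 0.895). Of the 4 groups, KO-labelled unheated arrays had the highest Hsf4 mean and rescue-labelled unheated arrays the lowest. The KO-labelled preshocked and rescue-labelled preshocked arrays lay between them. Their difference of 0.51 was below the SD of the KO-labelled group (1.11) and above that of the rescue-labelled group (0.22).

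Of 10 lens genes, listed because HSF4 acts in that tissue, 9 had a probe set, and 0 were called in each of the 6 comparisons. These 9 probe sets were dim, from percentile 8.12 (Mip) to 43.96 (Lim2) by mean level. Their SEs for the preshock effect in KO-labelled arrays ran from 0.68 (Lim2) to 1.10 log2 (Bfsp1), so the medians below are uncertain. Their median preshock differences were 0.16 log2 in KO-labelled and 0.43 in rescue-labelled arrays, where the medians over all probe sets were -0.01 and -0.01. Between the lines the lens medians were -0.73 in unheated and -0.02 in preshocked arrays (rescue minus KO), against 0.02 and 0.02 over all probe sets, and for the difference of preshock effects 0.73 against 0.00114.

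Hsbp1 (gene 68196, chromosome 8, 119344538 to 119348929 of GRCm38.p6) was bright. The SD over the 10 arrays was 0.19 log2 on 1451162_at and 0.44 on 1423906_at. Both of its probe sets were designed from the same complementary DNA record, and they lay at percentiles 86.0 (1423906_at) and 95.1 (1451162_at) by mean level. On 1451162_at the deposited intensity was 3039, 3390 and 3986 in KO-labelled preshocked arrays 5, 11 and 13, against 3022, 3110 and 3504 in KO-labelled unheated arrays 6, 12 and 14. In rescue-labelled arrays it was 4311 and 4460 after preshock (31 and 43), against 3978 and 4440 unheated (32 and 44). Preshocked and unheated arrays overlapped in each line, and arrays 5 and 6 were close together.

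After preshock the Hsbp1 difference on 1451162_at was 0.07 ± 0.12 log2 in KO-labelled arrays (SE, adjusted p = 0.9999) and 0.02 ± 0.15 in rescue-labelled arrays (adjusted p = 0.9999). The mean effect of both lines was 0.05 ± 0.10, or 1.03-fold with a 95% interval from 0.890 to 1.197-fold (adjusted p = 0.977). The single pairs ranged from -0.02 to 0.14 log2. On 1423906_at the mean effect was -0.03 ± 0.21 (95% interval -0.49 to 0.42, adjusted p = 0.991), with 2 of 5 pairs above 0 and pair differences from -0.21 to 0.19. With the pair block these intervals narrowed to -0.06 to 0.15 for 1451162_at and -0.19 to 0.13 for 1423906_at. For 1451162_at a change of more than 1.197-fold in either direction, and for 1423906_at one of more than 1.34-fold up, therefore lay outside the 95% interval of the mean effect.

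**Figure D2:**
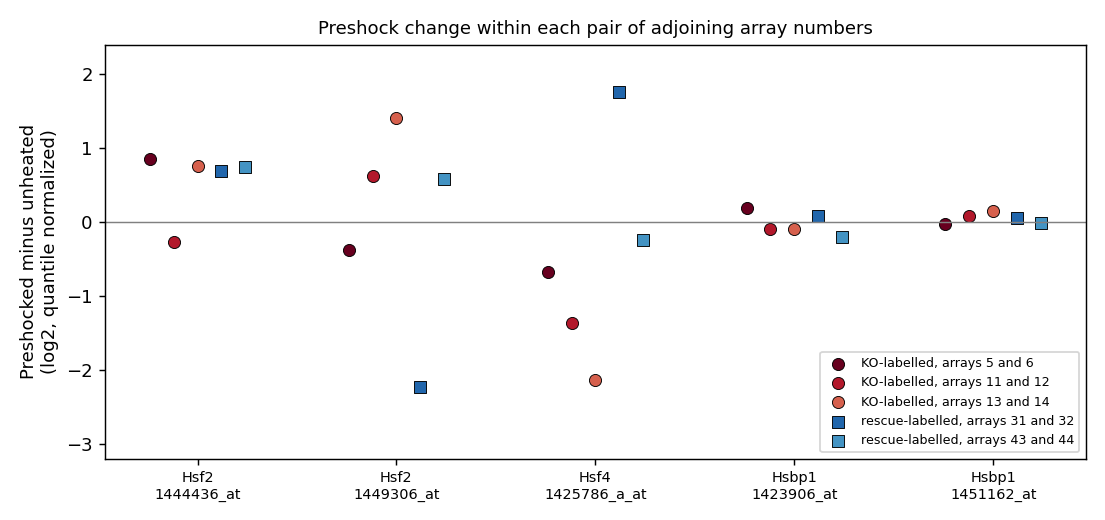
Preshocked minus unheated log2 difference (quantile normalized) within each of the 5 pairs of adjoining array numbers, circles for KO-labelled and squares for rescue-labelled pairs. Hsbp1 pairs stay between -0.21 and 0.19, while the dimmer Hsf2 probe set 1449306_at and Hsf4 range from -2.24 to 1.77.

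Between the lines, 1451162_at of Hsbp1 was the only one of the 5 probe sets whose 10 arrays all separated by line after normalization. The probe set 1423906_at then did not separate in any comparison. In deposited intensity the lines overlapped on 1451162_at, KO-labelled array 13 (3986) being just above rescue-labelled array 32 (3978). All 6 KO-labelled arrays had a normalized 1451162_at level of 11.88 or less, and all 4 rescue-labelled arrays one of 11.93 or more. Separation of all arrays by line, in either direction, was found for 5.94% of probe sets, within preshocked arrays for 25.7% and within unheated arrays for 26.2%. In preshocked arrays the level was 11.74 ± 0.12 in KO-labelled and 12.06 ± 0.09 in rescue-labelled arrays, and in unheated arrays 11.68 ± 0.06 and 12.03 ± 0.14 in the same order (log2, SD, n = 3 and 2). The rescue minus KO differences were 0.31 ± 0.14 (95% interval 0.01 to 0.61, adjusted p = 0.542 by limma) and 0.35 ± 0.14 (0.05 to 0.66, adjusted p = 0.488), and they did not pass the adjusted test. Levels were thus 1.24-fold and 1.28-fold higher in the rescue label by estimate.

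The second Hsbp1 probe set pointed the same way with more spread. On 1423906_at the deposited intensity was 820, 865 and 1067 in KO-labelled preshocked arrays, against 745, 967 and 1203 in KO-labelled unheated arrays. It was 1088 and 1658 in rescue-labelled preshocked arrays, against 1073 and 1903 in rescue-labelled unheated arrays. Arrays 43 and 44 were high and arrays 31 and 32 lay near the KO-labelled arrays 13 and 14. The lines overlapped in unheated arrays. In preshocked arrays they overlapped only after normalization (array 31 at 10.13 log2 against array 13 at 10.15). The rescue minus KO differences were 0.54 ± 0.29 in preshocked and 0.60 ± 0.29 in unheated arrays (SE, adjusted p = 0.625 and 0.584). Without array 44 the unheated difference was 0.20, and without array 43 the preshocked one was 0.27.

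The between-line values of Hsbp1 moved with the arrays' overall signal and with the scaling. Over the 10 arrays the correlation of the normalized level with the log2 array median was -0.75 for 1451162_at and -0.78 for 1423906_at, and the rescue-labelled arrays had medians from 50.7 to 53.3. With arrays centred on their medians in place of quantile normalization, the 1451162_at differences were 0.81 in preshocked and 0.93 in unheated arrays, where the median of all probe sets was itself 0.29 and 0.36. With the deposited scaling kept they were 0.35 and 0.39, where that median was -0.18 and -0.19. Without the pair 5 and 6 they were 0.26 and 0.35. The summed level of 5 muscle markers was 649 to 897 in KO-labelled and 305 to 402 in rescue-labelled preshocked arrays, and 590 to 879 in KO-labelled and 303 to 421 in rescue-labelled unheated arrays. For 5 neural markers the sums were 496 to 569 in KO-labelled and 215 to 234 in rescue-labelled preshocked arrays, and 476 to 542 in KO-labelled and 232 to 249 in rescue-labelled unheated arrays. All 5 of each list were measured and none lay above percentile 90 by mean level, with Acta1 (72.9) and Tubb3 (62.2) the highest and Myog (25.7) and Snap25 (6.64) the lowest. In preshocked arrays Acta1 averaged 9.16 log2 in KO-labelled and 7.56 in rescue-labelled arrays, and Tubb3 8.14 and 5.28 in the same order. Other markers of these lists went the other way there, such as Myod1 (5.74 in KO-labelled and 5.94 in rescue-labelled arrays) and Sox10 (5.45 and 6.15), so that the sums follow mainly 1 gene each. For adipocyte markers, 3 of 4 measured, the sums were 76.7 to 161.19 in KO-labelled and 161.19 to 173 in rescue-labelled preshocked arrays. In unheated arrays they were 81.1 to 122 in KO-labelled and 157 to 170 in rescue-labelled arrays, the direction of Hsbp1. Fabp4 (percentile 45.6) and Cebpa (51.8) went that way. Adipoq (20.0) went the other way, at 3.45 log2 in KO-labelled and 3.36 in rescue-labelled preshocked arrays, and 3.58 and 3.49 in unheated arrays. The part of the array medians and of these markers in the Hsbp1 difference was not tested.

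**Figure D3:**
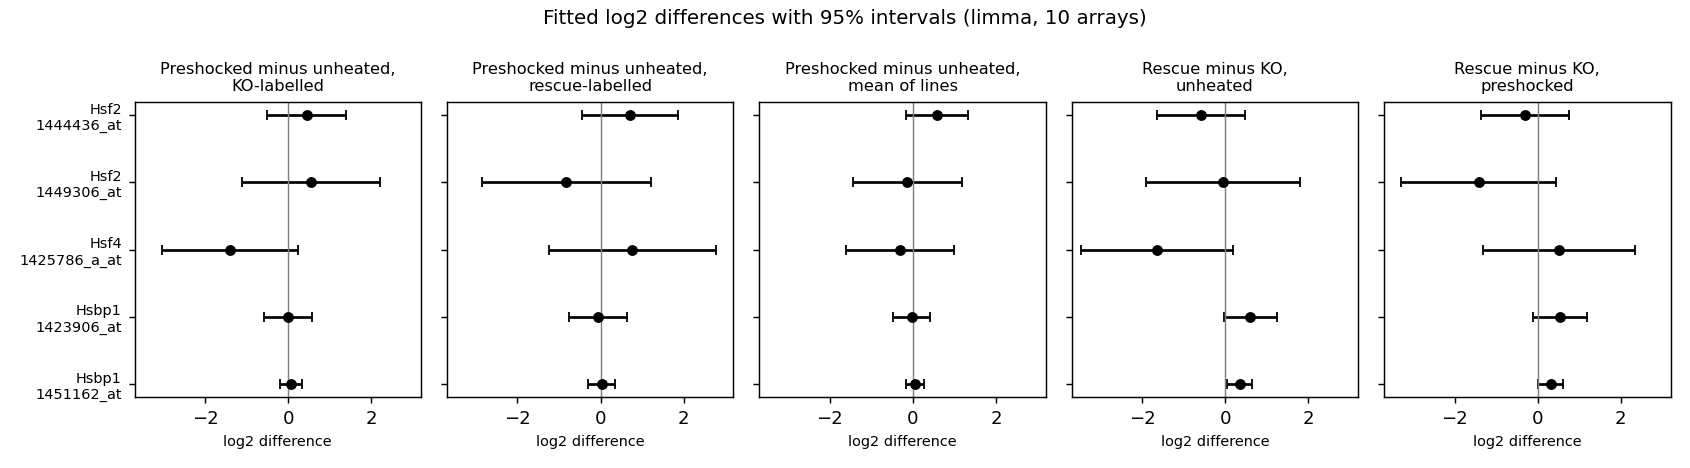
Fitted log2 differences of the 5 probe sets (points) with 95% intervals (bars) from limma over 10 arrays, for preshocked minus unheated in each line and for the mean of both, and for rescue minus KO in unheated and preshocked arrays. Intervals exclude 0 only for the Hsbp1 probe set 1451162_at between the lines (0.05 to 0.66 unheated, 0.01 to 0.61 preshocked), before adjustment over all probe sets and without the pair block.

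The genes whose pattern over the 10 arrays was most like that of each member were found by Pearson correlation, over the brightest 60% of genes with 1 probe set each. For Hsbp1 (1451162_at) they were Abhd17a (r = 0.977), Pla2g12a (0.976), Mthfd2 (0.975), Loxl1 (0.972) and Sdhc (0.969), and 4.82% of the 10915 genes compared had r above 0.8. For Hsf2 (1444436_at) they were Ftx (r = 0.909), Nsd3 (0.904), Acvr2a (0.894), Zbtb6 (0.891) and Syf2 (0.889), with 0.486% of genes above 0.8. These 10 points share 2 lines, 5 pairs and the array medians given above. The correlation between the Hsbp1 probe sets was 0.87, and between Hsf2 (1444436_at) and them it was -0.60 (1423906_at) and -0.54 (1451162_at). Hsf4, outside the brightest 60%, was not compared in this way.

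Other genes of the family gave no call either. Of 5 listed, Hsf5, Hsf2bp, Hsfy2 and Hsbp1l1 had a probe set, at percentiles 44.98, 23.2, 27.6 and 31.6 by mean level, and 0 of 4 passed in each of the 6 comparisons. HSF2BP binds HSF2 and is known from meiosis, and HSBP1L1 resembles HSBP1. The mean preshock differences were -0.12 ± 0.40 log2 for Hsf5, 0.40 ± 0.84 for Hsf2bp, -0.33 ± 0.99 for Hsfy2 and 1.01 ± 0.76 for Hsbp1l1 (SE, adjusted p from 0.833 to 0.985). Their median differences were 0.51 in KO-labelled and -0.12 in rescue-labelled arrays after preshock, and rescue minus KO 1.76 in unheated and 1.66 in preshocked arrays, on probe sets this dim.

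Some of the genes downstream of the factors rose in each line. Of 30 listed HSF target genes 27 had a probe set, and for the mean effect of both lines 10 of 27 were called as higher and 0 as lower (0.606% and 0.338% of all probe sets). In KO-labelled arrays the counts were 10 higher (background 0.315%) and 0 lower (0.0799%), with a median of 0.38 log2, and in rescue-labelled arrays 8 higher (0.124%) and 0 lower (0.00666%), with a median of 0.41. Earlier results of these data were known when this list was drawn up, so its direction is not independent evidence. With the pair block the counts of higher genes were 18 in KO-labelled arrays, 16 in rescue-labelled arrays and 20 for the mean effect. In the same order, the block called 1254, 658 and 1866 of all 45037 probe sets as higher. With array medians centred the target counts were 3, 1 and 6, where 44, 9 and 128 of all probe sets were called as higher. With no variance trend the target counts were 4, 2 and 9, and without the pair 5 and 6 they were 9, 8 and 10. In rescue-labelled arrays they were 4 without array 43 and 5 without array 31, 32 or 44.

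The target genes with the smallest adjusted p for the mean effect were Hspa1b (6.20 ± 0.25 log2, adjusted p = 2.13e-07), Dnajb1, an Hsp70 cochaperone (2.76 ± 0.12, adjusted p = 2.18e-07), Zfand2a, a stress-induced zinc finger gene (2.35 ± 0.12, adjusted p = 1.26e-06), and Dnajb4, another cochaperone (2.25 ± 0.11, adjusted p = 1.28e-06). These are SEs and adjusted p-values from the limma fit over all probe sets. The 10 called targets ranged down to Cryab at 0.79 ± 0.12, and the 17 that were not called ran from -0.36 (Cirbp) to 1.67 (Rrad), with Chordc1 at 0.57 and Hspa8 at 0.15. The members' mean effects, from -0.31 to 0.58, lay within that last range, and the difference between members and targets was not tested.

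**Figure D4:**
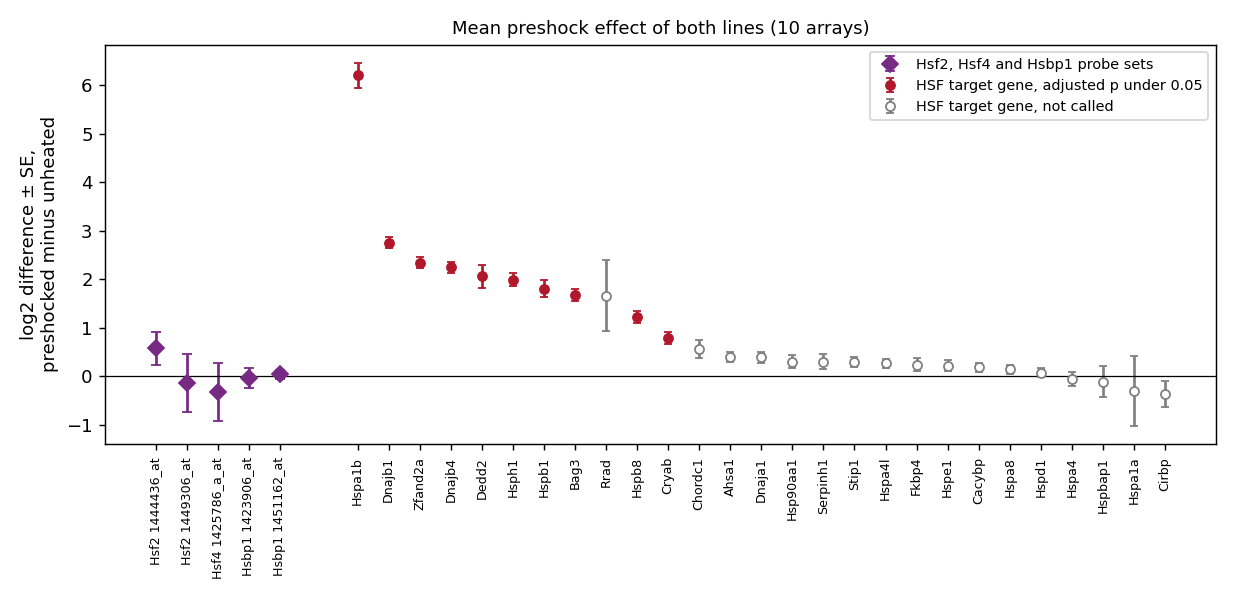
Mean preshock effect of both lines (log2 difference, preshocked minus unheated, ± SE, 10 arrays) for the 5 member probe sets (diamonds) and 27 HSF target genes (circles, filled where the adjusted p was under 0.05). The 10 called targets lie between 0.79 and 6.20, the 17 others between -0.36 and 1.67, and the members between -0.31 and 0.58.

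Of genes for proteins known to act on HSF1 or HSF2, a few chaperone genes rose. Of 18 chaperones and partners that bind HSF1, 16 had a probe set, and 3 were called as higher and 0 as lower in KO-labelled arrays, in rescue-labelled arrays and for the mean effect (0.315%, 0.124% and 0.606% of all probe sets were called as higher): Hspa1b, Dnajb1 and Hsph1 (2.00 ± 0.14 log2 for the mean effect), a partner of Hsp70. All 3 are also on the list of targets. With the pair block 6, 4 and 7 of the 16 were called in the order given, each as higher, where the block called 5.79%, 3.04% and 8.97% of all probe sets in either direction.

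Of 28 enzymes that modify HSF1 or HSF2, 22 had a probe set and 0 were called by limma in any preshock comparison, with medians of -0.03 log2 in KO-labelled and -0.06 in rescue-labelled arrays. With the pair block 4, 1 and 5 of them were called in KO-labelled arrays, in rescue-labelled arrays and for the mean effect, and 1, 0 and 2 of these were higher. Against 5.79%, 3.04% and 8.97% of all probe sets called with the block, the 1 of 22 in rescue-labelled arrays is near the background. The list took the probe set of highest mean per gene, at percentiles from 45.6 (Camk2b) to 99.03 (Cdc20). These backgrounds are over all probe sets, dim ones included, so they are unlike measures. The 5 of the mean effect were the acetyltransferase gene Crebbp (-0.47 log2, block adjusted p = 2.76e-04), the kinase subunit gene Csnk2a2 (-0.27, 0.00486), the SUMO ligase gene Pias1 (-0.39, 0.0290), the deacetylase gene Sirt1 (0.37, 0.00966) and the ubiquitin ligase gene Fbxw7 (0.34, 0.0380). SIRT1 is known to prolong DNA binding of HSF1, and FBXW7 to mark it for degradation. These 5 were named after their values were seen.

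Of 16 nuclear partners of HSF1, 13 had a probe set, 0 were called within a line, and 1 was called for the mean effect of both lines (0.606% of all probe sets were called as higher). It was Ccnt1, which encodes cyclin T1, a subunit of the elongation kinase that HSF1 is known to bring to chaperone genes. Ccnt1 rose by 0.84 ± 0.13 log2 for the mean effect (SE, adjusted p = 0.00882 by limma), with 0.87 ± 0.17 in KO-labelled arrays (adjusted p = 0.0537) and 0.81 ± 0.20 in rescue-labelled arrays (adjusted p = 0.341). With the pair block 2, 2 and 3 of the 13 were called in KO-labelled arrays, in rescue-labelled arrays and for the mean effect. In the same order, the block called 5.79%, 3.04% and 8.97% of all probe sets. Ccnt1 was called with the block in both lines (adjusted p = 3.01e-04 and 0.00325), and Wdr5 was called too, as lower (-0.37 and -0.47 log2, adjusted p = 0.0225 and 0.0306). For the mean effect the block also called Daxx as lower (-0.43, adjusted p = 0.00783) beside Wdr5 (-0.42, adjusted p = 0.00175). DAXX is known to bind HSF1, and WDR5 belongs to histone methyltransferase complexes.

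Between the lines, 0 genes of the 6 lists passed the test in unheated or in preshocked arrays, and 0 had a called difference of preshock effects. The rescue minus KO medians in unheated and preshocked arrays were 0.02 and 0.02 log2 for the chaperones, -0.05 and -0.17 for the modifying enzymes, -0.05 and -0.10 for the nuclear partners, and 0.03 and 0.02 for the targets. For the difference of preshock effects these medians were 0.05, -0.01, -0.04 and 0.01.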

How the data were processed

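RNA was amplified in one cycle and labelled with biotin, per the labels' protocols. The authors deposited 1 linear intensity per probe set and array. The summarisation software was not given in the sources used here. Per-array means after trimming 2% of probe sets at each end were 500.003 to 500.004, so the arrays share a scale. Values below 1 (4935) were set to 1, log2 values were quantile normalized because array medians differed by more than 0.2 log2, and 64 control probe sets were left out. Genes were named from the platform annotation, with symbols updated through gene identifiers. limma 3.58.1 (R 4.3.3, statmod 1.5.0) fitted 4 group means with a variance trend. The fit, with 6 comparisons, was tested on simulated data. Named were all probe sets of the members, the 5 genes most correlated with each bright member, and up to 4 called genes per list with the smallest adjusted p. Hspb1, Cryab, Wdr5, Daxx and the other HSF family genes were named after their values were seen. Lists used the probe set of highest mean per gene, while each background share was over all probe sets, dim ones included. Members and lists were chosen with earlier results of these data known. Locations are RefSeq's. The number of arrays limits precision.

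Pairs are adjoining array numbers in the labels. Deviations from group means correlated within pairs at 0.424, 0.120, 0.203, 0.115 and 0.115 over all probe sets. Arrays of different pairs were not compared in this way, so these values do not test the pairing, which was assumed. The 2 rescue-labelled values are equal by construction. The pair block was fixed for preshock effects and random between lines (correlation 0.486). Alternatives were median centring, deposited scaling, a floor of 16, the brightest 60% of probe sets, 1 probe set per gene, no variance trend, robust variances, the block, and leaving out each array or the pair 5 and 6.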

Additional observations from a re-analysis of the deposited data

How the results depend on the processing

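The 5 probe sets of Hsf2, Hsf4 and Hsbp1 had 0 calls wherever they were tested in the 6 comparisons under the 19 alternatives. The lowest adjusted p was 0.263, given by the replicate block to Hsf2 (1444436_at, mean preshock effect). Where only the brightest 60% of probe sets were kept, Hsf2 1449306_at and Hsf4 were not tested. With 1 probe set per gene, Hsbp1 1423906_at was left out as well. The block changed no call of a member. Of 540 recomputed differences 503 kept their sign. Of the 240 that left out no single array, 5 changed it: Hsbp1 1423906_at in KO-labelled arrays was -0.065 with the deposited scaling and -0.095 without the pair 5 and 6, against 2.68e-04. For Hsf2 1449306_at the mean preshock effect was 0.20 with a floor of 16 and 0.081 without that pair. For Hsbp1 1423906_at the difference of effects was 0.029 without it. The cause was not tested. Leaving out 1 array changed the sign of 32 of 300. The preshock ranges in KO-labelled arrays were -0.21 to 0.19 (Hsbp1 1423906_at) and -0.00246 to 0.12 (Hsbp1 1451162_at). In rescue-labelled arrays they were -2.06 to 0.41 (Hsf2 1449306_at), -0.081 to 1.63 (Hsf4), -0.47 to 0.34 (Hsbp1 1423906_at) and -0.076 to 0.13 (Hsbp1 1451162_at). For the mean effect they were -0.76 to 0.48 (Hsf2 1449306_at), -0.73 to 0.11 (Hsf4), -0.24 to 0.17 (Hsbp1 1423906_at) and -0.00469 to 0.10 (Hsbp1 1451162_at). For the difference of effects they were -0.10 to 0.64 (Hsf2 1444436_at), -0.47 to 0.34 (Hsbp1 1423906_at) and -0.14 to 0.058 (Hsbp1 1451162_at). For rescue minus KO they were -0.23 to 0.13 (Hsf2 1449306_at, unheated) and -0.65 to 0.041 (Hsf2 1444436_at, preshocked).

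Counts over all probe sets moved more. They were 27 to 2607 in KO-labelled arrays (178 in the fit reported), 9 to 1368 in rescue-labelled arrays (59), 107 to 4041 for the mean effect (425), 0 to 41 for the difference of effects (0), and 6 to 124 in preshocked (22) and 10 to 109 in unheated arrays (36) between the lines. The lowest preshock counts came with no variance trend or with median centring, and the highest with the replicate block. Higher and lower calls were 142 and 36 in KO-labelled arrays, against 44 and 0 with median centring and 1254 and 1353 with the replicate block. In rescue-labelled arrays they were 56 and 3, against 658 and 710 with the block. For the mean effect they were 273 and 152, against 128 and 26 with median centring, 278 and 269 with the deposited scaling, and 1866 and 2175 with the block. For rescue minus KO they were 3 and 19 in preshocked and 8 and 28 in unheated arrays, against 11 and 10 and 17 and 14 with median centring and 28 and 51 and 16 and 36 with the block. The Hsf2 probe set 1449306_at and that of Hsf4 were outside the brightest 60%.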
